A study of Mus musculus with 8 samples.

Results

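RNA-binding, splicing and helicase genes were taken as the protein-coding genes whose symbols begin with *Srsf* or *Hnrnp*, or with *Rbm*, *Ddx* or *Dhx* followed by a digit. *Rbm15* and *Rbm15b*, which encode parts of the m6A writer complex, and *Ddx58* and *Dhx58*, which encode sensors of viral RNA, were left out, as were genes of the sex chromosomes. The rule used names alone and found 112 members among the 21951 genes that GENCODE M21 annotates as protein-coding, namely 11 *Srsf*, 19 *Hnrnp*, 33 *Rbm*, 34 *Ddx* and 15 *Dhx* genes. Their m6A peaks were compared between bone marrow-derived macrophages (BMDMs) of 2 WT and 2 *Mettl3*-deleted (KO) mice by MeRIP-Seq, in which RNA fragments bound by an antibody against m6A are sequenced beside the input RNA. WT mice were *Mettl3* fl/fl Lyz2 +/+ and KO mice were *Mettl3* fl/fl Lyz2 cre/+, so that both genotypes carried the floxed *Mettl3* alleles, and in KO mice the Cre recombinase stood under the control of *Lyz2*, which is active in macrophages, granulocytes and some other myeloid cells. All mice were C57BL/6 animals of 8 weeks, and their marrow cells were grown for 7 days with the macrophage growth factor M-CSF at 40 ng/mL. Each mouse gave an IP and an input library, 8 libraries in all, and 1 deposited list of peaks, named here WT-1 and WT-2 for the WT mice and KO-1 and KO-2 for the KO mice.

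m6A is placed on mRNA by a complex whose catalytic subunit is METTL3, mostly at an adenosine in a short motif of which GGAC is a frequent form, and many m6A sites lie in long internal exons and around stop codons. SRSF proteins (SR proteins) and hnRNPs bind nascent transcripts and influence which splice sites are used, RBM proteins are a mixed group defined by RNA recognition motifs, and DEAD-box (DDX) and DEAH-box (DHX) helicases remodel RNA and RNA-protein complexes with ATP. The DEAH-box proteins DHX16, DHX38, DHX8 and DHX15 drive successive steps of the spliceosome, while many other DDX and DHX proteins act in ribosome assembly, mRNA export, translation or decay.

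A list gives the place and strand of each peak and a score from the peak caller, and a peak was counted for the gene on its strand whose exons it overlapped most. Lists held 6159 (WT-1) to 6684 (KO-2) peaks, of which 97.0% to 97.3% could be assigned. Scores are given as deposited and share no scale between lists, so lists were compared by the percentile of a peak within its own list. Of the peaks of a list, 10.3% to 19.5% stood at a score of 3100 or more, where scores no longer rank peaks. The percentile is the share of a list's peaks that score no higher, so peaks tied at 3100 all stood at 99.1 to 99.7. Such a percentile marks the whole tied group and not a place within it. The lists hold no read counts, so sequencing depth and the RNA level of a gene are unknown, and a gene without a listed peak may carry m6A below the reach of the caller or may not be expressed. *Mettl3* had no peak in any list, and neither had the macrophage genes *Csf1r*, *Adgre1*, *Cd68*, *Itgam* and *Lyz2*, while *Mertk*, which macrophages also express, had 1 in each list. A peak is not a level of expression, so the lists check neither the genotype nor the cell type. No test on 2 WT against 2 KO mice could pass 0.05, since the two-sided exact permutation test over 6 labellings gives no p below 0.333, and this p measures only the spread between these mice.

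The sequences below show the GGAC motif in the members on which the results turn, as the 30 bases around the GGAC nearest the middle of the stretch that the lists shared. Capitals mark GGAC, and the letters were read 5′ to 3′ on the strand of the gene from GRCm38. The first set comes from members with a region in all 4 lists: *Ddx6* at chr9:44607269-44607298 (+, 5′-UTR) and chr9:44637077-44637106 (+, 3′-UTR), *Ddx21* at chr10:62598515-62598544 (-, CDS), *Ddx24* at chr12:103423989-103424018 (-, CDS), *Dhx8* at chr11:101738329-101738358 (+, CDS), *Rbm33* at chr5:28339164-28339193 (+, CDS), *Rbm6* at chr9:107852763-107852792 (-, CDS), *Dhx9* at chr1:153456048-153456077 (-, 3′-UTR) and *Ddx23* at chr15:98651924-98651953 (-, CDS).
Ddx6 5′-UTR: atattattgagcaGGACttatttatctctt
Ddx6 3′-UTR: agggccggaaggtGGACtagtgatggcagc
Ddx21: caagctgaagaatGGACtctcccaaccttc
Ddx24: tgtctgcctggagGGACctgtttgtgccca
Dhx8: agaacccgggagaGGACtaaggggaaatct
Rbm33: gtacccagaggaaGGACagtatgaaggcca
Rbm6: atgtatctgatttGGACttcagggataaag
Dhx9: ggctattaagactGGACtctgtcggagcct
Ddx23: ggaaacagttccaGGACctgggcaggaaga

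The next set comes from members with a peak in both WT lists and neither KO list: *Rbm14* at chr19:4803824-4803853 (-, CDS) and *Hnrnpa3* at chr2:75667654-75667683 (+, outside the longest coding transcript). The stretches shared by the WT lists on *Hnrnpc* and *Dhx30*, which showed the same pattern, hold no GGAC.
Rbm14: aaccaggggctggGGACacagcattccctg
Hnrnpa3: gccatttgagtatGGACaagtcagcataaa

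The last set shows near-identical neighbours, whose reads a mapper may not tell apart: *Ddx19a* at chr8:110975872-110975901 (-, 3′-UTR), *Ddx19b* at chr8:111008093-111008122 (-, 3′-UTR), *Rbm12b1* at chr4:12145163-12145192 (+, CDS) and *Rbm12b2* at chr4:12094276-12094305 (+, CDS).
Ddx19a: cggaattacgtttGGACttgacaaatttct
Ddx19b: cggaattacgtttGGACttgacaaatttgt
Rbm12b1: gaaggaaaggccaGGACgtgtttcacaaaa
Rbm12b2: gaaggaaaggccaGGACgtgtttcacaaaa

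Peaks were found on 69 of the 112 members (61.6%), against 7057 of all 21951 protein-coding genes (32.1%), a group that includes many genes that macrophages do not express. All 4 lists held a peak on 28 members, which is 25.0% of the members against 9.79% of all genes, and 40.6% of the members with a peak against 30.4% of all genes with a peak. The families differed in these counts. Among *Dhx* genes, 12 of 15 had a peak and 7 had 1 in every list, and among *Ddx* genes 21 of 34 had a peak and 11 had 1 in every list. Among *Rbm* genes, 22 of 33 had a peak and 8 had 1 in every list, and among *Hnrnp* genes 10 of 19 had a peak and 2 had 1 in every list. *Srsf* genes were lowest in both counts, with a peak on 4 of 11 and none of them in every list. These counts were not tested between families, and whether the RNA levels of the genes moved with them could not be measured here.

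**Figure D1:**
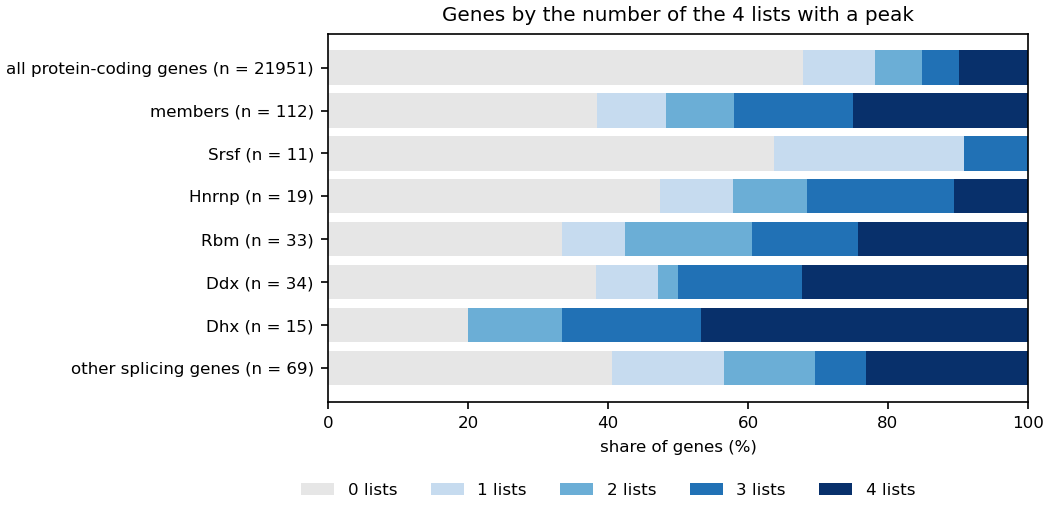
Share of genes (x axis, %) by the number of the 4 lists in which they had a peak, from 0 (light grey) to 4 (dark blue), for all 21951 protein-coding genes, the 112 members, each family and 69 other splicing genes (rows). The dark part is widest for Dhx genes (7 of 15) and missing for Srsf genes.

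The members without any listed peak included most of the classical SR proteins, *Srsf1*, *Srsf2*, *Srsf3*, *Srsf5*, *Srsf6* and *Srsf7*, together with *Srsf12*. Among hnRNPs they were *Hnrnpa1*, *Hnrnpa2b1*, whose product has been described as a nuclear reader of m6A, *Hnrnpab*, *Hnrnpdl*, *Hnrnpf*, *Hnrnph1*, *Hnrnph3*, *Hnrnpk* and *Hnrnpr*. The helicases without a peak included *Ddx5*, a cofactor of microRNA processing, *Ddx46* and *Dhx16*, which act in splicing, and the germ cell helicase *Ddx4*. The others without a peak were *Ddx1*, *Ddx18*, *Ddx25*, *Ddx27*, *Ddx39*, *Ddx41*, *Ddx43*, *Ddx49*, *Ddx50*, *Ddx60*, *Dhx29*, which acts in the scanning of structured 5′-UTRs, and *Dhx35*. The RBM genes without a peak included the splicing factors *Rbm39* and *Rbm17*, *Rbm8a*, which encodes a core protein of the exon junction complex, and *Rbm20*, *Rbm24* and *Rbm46*, which are mainly known from muscle or germ cells, and further *Rbm7*, *Rbm11*, *Rbm18*, *Rbm38* and *Rbm44*.

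The numbers of members with a peak were alike in the 4 lists, at 49 and 51 in the WT lists and 52 and 50 in the KO lists. The means were 50 ± 1.41 in WT and 51 ± 1.41 in KO BMDMs (SD, n = 2; two-sided exact permutation test, p = 0.667). Members carried 71 and 67 peaks in the WT lists and 73 and 75 in the KO lists, with means of 69 ± 2.83 and 74 ± 1.41 (SD, n = 2; exact permutation test, p = 0.333). Both KO lists held more member peaks than either WT list, but they also held more peaks in all. As a share of assigned peaks, members took 1.19% and 1.1% in WT and 1.18% and 1.16% in KO BMDMs, and the genotypes overlapped (exact permutation test, p = 1). Within families, the *Ddx* genes with a peak numbered 14 and 18 in WT and 17 and 18 in KO BMDMs, and the *Dhx* genes 10 and 10 against 11 and 10. The *Rbm* genes numbered 17 and 15 against 17 and 13, the *Hnrnp* genes 6 and 8 against 5 and 7, and the *Srsf* genes 2 and 0 against 2 and 2. In each family the lists of WT and KO BMDMs overlapped or touched.

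**Figure D2:**
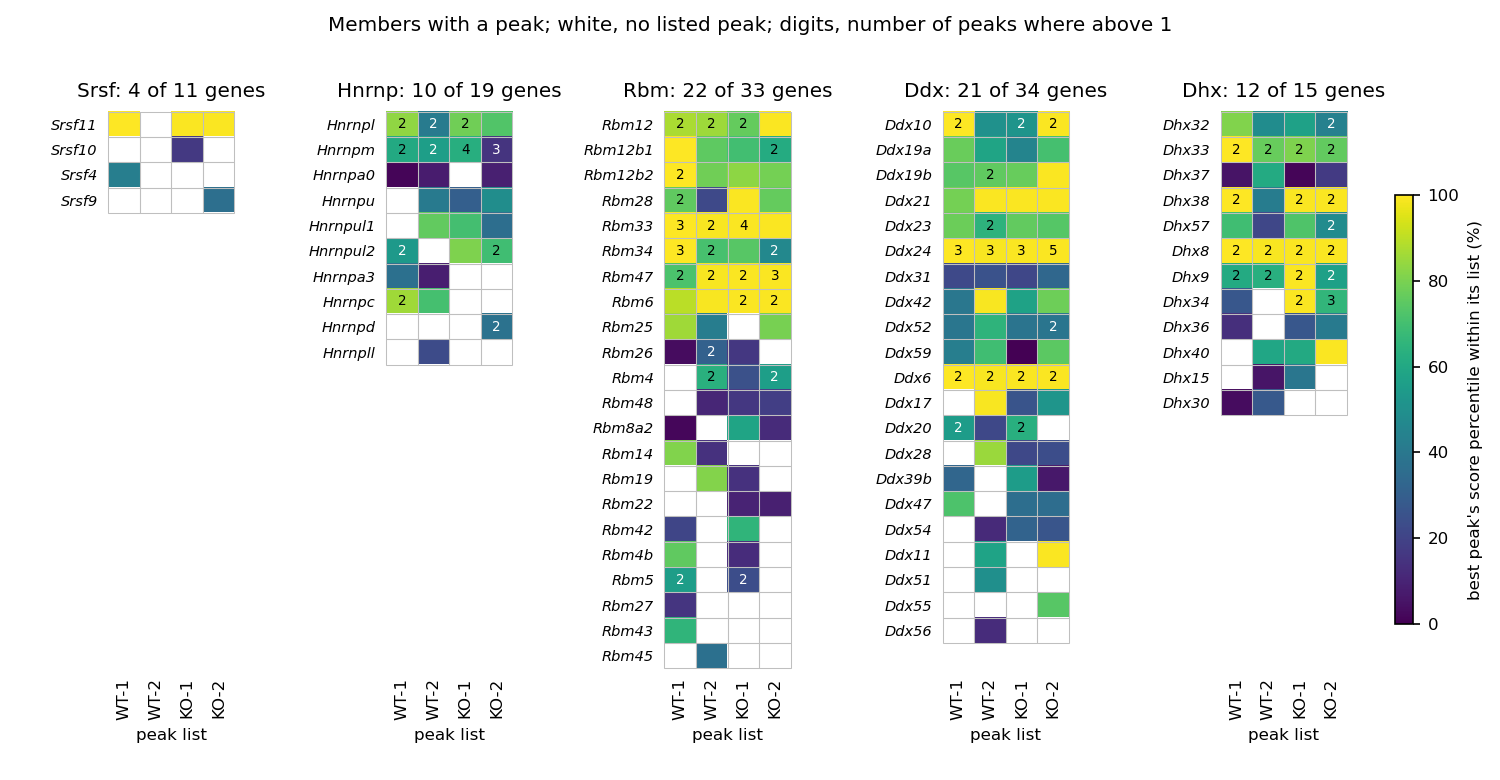
Each of the 69 members with a peak (rows, by family) in the 4 lists (columns), coloured by the score percentile of its best peak within that list (%), white where no peak was listed, with the number of peaks where above 1. Ddx6, Ddx24 and Dhx8 are at the top of the scale in all 4 lists, and Hnrnpc, Hnrnpa3, Rbm14 and Dhx30 are filled in the WT columns alone.

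The 4 regions with a score of 3100 or more in every list all lay on helicase genes, *Ddx6*, *Ddx24* and *Dhx8*. *Ddx6*, which encodes a P-body helicase that promotes mRNA decapping and translational repression, had 2 regions in all 4 lists, and each stood at a score of 3100 in every list. Its 5′ region (chr9:44607123-44607592) had the middle of its shared stretch 62 nt before the start codon, and its 3′ region (chr9:44636489-44638286) had it 674 nt behind the stop codon. *Ddx24*, which encodes a nucleolar helicase, had a region at 3100 in all 4 lists with its middle 567 nt into the CDS. A further *Ddx24* region, 1119 nt into the CDS, scored 1610.72 in WT-1 and 3100 in the 3 other lists. With 5 peaks in KO-2, *Ddx24* had more peaks in a list than any other member. *Ddx21*, the product of which acts in rRNA transcription and processing, scored 1488.77 and 3148.67 in WT and 3100 and 3100 in KO BMDMs, at 416 nt into its CDS. At or near 3100 the scores do not rank the lists, so that equal scores do not show equal m6A levels.

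Among the DEAH-box helicases of the spliceosome, *Dhx8*, which releases spliced mRNA, had a region at 3100 in all 4 lists, with 11 GGAC motifs in a shared stretch of 432 bp whose middle lay 719 nt into the CDS. Its region 195 nt behind the stop codon scored 1052.65 and 215.35 in WT and 254.53 and 1242.82 in KO BMDMs, and with percentiles of 71.5 and 17.1 against 25.8 and 61.7 each genotype held a high and a low value. *Dhx38*, which acts before the second catalytic step, showed a region 176 nt behind the stop codon in all lists, at 332.19 and 538.70 in WT and 694.97 and 132.51 in KO BMDMs. A *Dhx38* region 157 nt into the CDS stood at 3100 wherever it was listed, which was in every list but WT-2. *Dhx15*, which takes the spliceosome apart, had a peak in WT-2 and KO-1 alone. *Dhx9*, a helicase that unwinds double-stranded RNA, had a region over its stop codon in all lists, which scored 483.23 and 527.56 in WT and 3100 and 420.21 in KO BMDMs. At percentiles of 48.4 and 41.0 against 99.4 and 33.1, KO-1 stood above both WT lists and KO-2 below them. *Dhx33*, which has roles in ribosome synthesis, had regions 226 and 2829 nt behind its stop codon. The distal region scored 3100 and 1918.08 in WT and 1520.99 and 464.45 in KO BMDMs, and the proximal region 563.37 and 676.52 against 2462.94 and 2390.68. The percentiles of the distal region were 99.7 and 76.9 in WT and 71.9 and 35.4 in KO BMDMs, and those of the proximal region 53.5 and 48.8 against 80.5 and 76.0. The genotypes thus did not overlap for either region, in opposite directions, and these regions were singled out after their values were seen. *Dhx33* was not alone in this among regions in all 4 lists. For example, WT percentiles stood higher for *Ddx10* at its stop codon (66.3 and 50.6 against 30.8 and 17.8). The same held for *Rbm12b1* (99.7 and 75.2 against 69.8 and 61.5) and *Ddx52* (39.2 and 65.0 against 38.4 and 39.0). KO percentiles stood higher for *Ddx19b* (73.9 and 75.8 against 76.6 and 99.3).

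The remaining DEAH-box genes with a region in all lists were *Dhx32*, *Dhx57* and *Dhx37*. *Dhx32* scored 1668.23 and 673.57 in WT and 796.09 and 82.55 in KO BMDMs at its start codon, and *Dhx57* scored 964.27 and 253.63 against 1569.87 and 738.31 at 774 nt into its CDS. *Dhx37*, which acts in the assembly of the small ribosomal subunit, scored 92.95 and 1014.44 against 60.67 and 209.44 at 332 nt behind its stop codon. By percentile, the genotypes overlapped for each of the 3 genes, at 81.1 and 48.6 against 57.1 and 3.55 for *Dhx32*, 69.4 and 21.2 against 72.6 and 48.2 for *Dhx57*, and 5.34 and 61.2 against 1.18 and 17.1 for *Dhx37*.

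The remaining DEAD-box genes with a region in all lists were mostly placed at the 3′ end. *Ddx10*, *Ddx52* and *Ddx31*, which encode helicases of ribosome assembly, had them 9 nt before, 126 nt behind and 366 nt behind the stop codon. *Ddx42*, whose product associates with the U2 snRNP, had a region 383 nt behind the stop codon, with scores of 367.48 and 3100 in WT and 807.97 and 2670.54 in KO BMDMs. *Ddx59* was an exception, with a region 446 nt into the CDS that ran from 402.38 and 1408.61 in WT to 52.47 and 2243.23 in KO BMDMs. The mRNA export helicases *Ddx19a* and *Ddx19b* had regions at the same place, 117 nt behind the stop codon, and the best local alignment of their shared stretches covered 225 bp at 99.6% identity, with 217 bp in a row identical. *Ddx19a* scored 1348.18 and 917.70 in WT and 493.16 and 1851.22 in KO BMDMs, and *Ddx19b* scored 1178.06 and 1827.12 against 1958.82 and 3100. Which of the 2 genes gave the reads is uncertain, and both may owe a peak to the same fragments.

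Of the *Rbm* genes, *Rbm33* and *Rbm6*, an alternative splicing regulator, had the highest scores. *Rbm33* stood at 2916.71 in WT-1 and at 3100 in the other lists, with its region 404 nt into the CDS. *Rbm6* scored 3029.21 in WT-1 and 3100 in the others over a region with a shared stretch of 1321 bp that held 15 GGAC motifs. *Rbm47*, whose product is a cofactor of C-to-U editing of mRNA, had a CDS region that scored 1071.80 in WT-1 and 3100 in the other lists, beside a region 119 nt behind the stop codon at 593.31 and 1203.07 in WT and 892.34 and 1190.66 in KO BMDMs. *Rbm12b1* and *Rbm12b2* again form a near-identical pair: the shared stretches aligned over 1454 bp at 99.8% identity, and their scores ran from 1230.68 to 3100 and from 2046.82 to 3100. Peaks on *Rbm8a2*, a single-exon copy of the exon junction gene *Rbm8a*, were listed in WT-1 at a score of 68.05 and in the KO lists at 836.31 and 160.91. *Rbm8a* itself had none, and its transcript aligned with that of *Rbm8a2* over 714 nt at 97.8% identity with at most 116 nt in a row alike, so these peaks too are uncertain in origin. *Rbm34*, the product of which is found in the nucleolus, had a region over its stop codon at 3100 and 256.65 in WT and 1678.55 and 700.23 in KO BMDMs. *Rbm12* scored 2548.91 and 2913.99 in WT and 1911.50 and 3100 in KO BMDMs in its CDS. *Rbm12* and *Rbm4* share exons with predicted readthrough loci, and their peaks were given to the named gene where the overlaps were equal. The longest coding transcripts of *Rbm4* and *Rbm4b* aligned over 1091 nt at 85.9% identity, with 426 nt in a row identical. Which of their peaks fall in that run was not tested, so peaks on both genes may be uncertain in origin as well.

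Only *Hnrnpl* and *Hnrnpm* among the hnRNP genes had a peak in all 4 lists. *Hnrnpl*, which encodes a splicing regulator that binds CA-rich RNA, did so through different regions: a region 65 nt into the annotated CDS scored 1918.23 in WT-1 and 2168.60 and 2039.95 in the KO lists, and a region 182 nt behind the stop codon scored 227.35 and 179.27 in the WT lists and 112.82 in KO-1. The longest coding transcript of *Hnrnpl* has no annotated 5′-UTR. The 65 nt thus count from its first base, which may not be a start codon. *Hnrnpu*, which encodes a nuclear scaffold protein that binds RNA and chromatin, lacked a peak in WT-1 alone, and *Hnrnpul2* in WT-2 alone. *Srsf11* was the only *Srsf* gene with a peak in more than 1 list. Its peaks lay over the stop codon, stood at 3100 in WT-1 and both KO lists, and were missing from WT-2. The peaks of *Srsf4* (WT-1, 404.18), *Srsf10* (KO-1, 175.16) and *Srsf9* (KO-2, 482.58) were each seen in a single list.

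A gene was counted as WT only when both WT lists and neither KO list held a peak anywhere on it, and as KO only in the reverse case. Of the 69 members with a peak, 4 were WT only (5.80%), where 3.84% of all genes with a peak had this pattern. The KO-only pattern was seen on 1 member (1.45%), where the share of all genes was 4.87%. Counts of 4 and 1 are too small to set the members apart from all genes. *Hnrnpc*, *Hnrnpa3*, *Rbm14* and *Dhx30* were the WT-only members, and *Rbm22* was the KO-only member.

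*Hnrnpc*, whose product binds uridine tracts and is known to reach some of its sites more easily where m6A opens the RNA structure, had the highest scores of these genes. Its peak at chr14:52074837-52075160 (minus strand) covered the stop codon, with 81 bp of CDS, and scored 2247.99 in WT-1 and 1466.52 in WT-2, at percentiles of 85.7 and 70.4. *Rbm14*, which encodes a paraspeckle protein and transcriptional coactivator, had a peak at chr19:4803601-4804015 in the CDS of exon 2, with the same edges in both WT lists. Its score was 1645.36 in WT-1 but 192.12 in WT-2, at percentiles of 80.9 and 14.4. *Hnrnpa3*, an hnRNP of the A/B type, scored 339.75 and 132.44 at chr2:75667430-75668024, outside the exons of its longest coding transcript and inside an exon of another coding transcript. *Dhx30*, a helicase of mitochondrial RNA and ribosome assembly, scored 80.18 and 336.11 in the CDS of exon 8, at percentiles of 3.41 and 28.0. *Rbm22*, which encodes a spliceosome protein that contacts U6 snRNA and the pre-mRNA, had the same edges in both KO lists, at scores of 124.15 and 129.88 and percentiles of 10.1 and 8.75, so both were among the weaker peaks of their lists. When the lists were cut to the 50% of peaks with the highest scores, *Hnrnpc* alone remained WT only, *Rbm22* was lost, and *Dhx34*, which encodes a factor of nonsense-mediated decay, became KO only.

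When overlapping peaks of the 4 lists were merged, members held 124 regions. All 4 lists held 32 of these (25.8%, against 18% of all 11971 regions), and a single list held 49 (39.5%, against 49.3%). With the rule applied to each region in place of each gene, WT-only regions numbered 6 (4.84%, against 3.34% of all regions). KO-only regions numbered 7 (5.65%, against 6.1%). Beside the genes above, the WT-only regions lay on *Rbm26* and *Rbm33*. The *Rbm33* region at chr5:28352472-28352792 scored 3100 in both WT lists and was not listed in either KO list, while the *Rbm33* region nearer to the start codon stood in all 4. The KO-only regions lay on *Rbm22*, *Rbm6*, *Hnrnpm*, *Hnrnpu*, *Dhx34*, *Dhx36*, which encodes a helicase that unwinds G-quadruplexes, and *Ddx17*, a paralogue of *Ddx5*. Their best score in either KO list was 3100 for *Dhx34*, in KO-1, and lay between 129.88 and 845.30 for the others.

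Of the 19 members with a peak in 3 lists, 8 lacked it in WT-1 and 7 in WT-2, while 2 lacked it in KO-1 and 2 in KO-2. Among the genes of the whole series, 346 and 414 lacked it in WT-1 and WT-2, and 220 and 207 in the corresponding KO lists. Missing from WT-1 were *Hnrnpu*, *Hnrnpul1*, *Rbm4*, *Rbm48*, *Ddx17*, *Ddx28*, a helicase of the mitochondrial ribosome, *Ddx54* and *Dhx40*, and missing from WT-2 were *Srsf11*, *Hnrnpul2*, *Rbm8a2*, *Ddx39b*, *Ddx47*, *Dhx34* and *Dhx36*. *Hnrnpa0* and *Rbm25* were missing from KO-1, and *Rbm26* and *Ddx20*, a partner of SMN in the assembly of snRNPs, from KO-2. Members with a peak in 1 WT and 1 KO list were *Rbm19*, *Rbm42*, *Rbm4b*, *Rbm5*, *Ddx11* and *Dhx15*. Single-list members beside the *Srsf* genes were *Hnrnpd*, *Hnrnpll*, *Rbm27*, *Rbm43*, *Rbm45*, *Ddx51*, *Ddx55* and *Ddx56*. Over member peaks, the Jaccard index (bases in both lists divided by bases in at least 1 of them) was 0.421 between WT-1 and WT-2, 0.583 between KO-1 and KO-2, and 0.420 to 0.489 across genotypes. On the member genes, WT-1 and WT-2 were thus about as alike as lists of different genotypes. For the other genes these values were 0.358, 0.517 and 0.372 to 0.394.

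Along the transcript, the 32 regions found in all lists lay on 26 members. On the longest coding transcript, 9 had the middle of the shared stretch within 200 nt of the stop codon (28.1%, against 24.9% of such regions of other genes), 13 elsewhere in the CDS, 6 elsewhere in the 3′-UTR, 3 within 300 nt of the start codon and 1 outside its exons. GGAC stood in the shared stretch of 29 of the 32, which differ in length. In a central window of 200 bp, which is the same length for every peak, GGAC was present on the transcript strand in 62.0% and 64.2% of member peaks in WT and 61.6% and 62.7% in KO BMDMs, against 61.0% to 63.9% of the peaks of other genes.

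**Figure D3:**
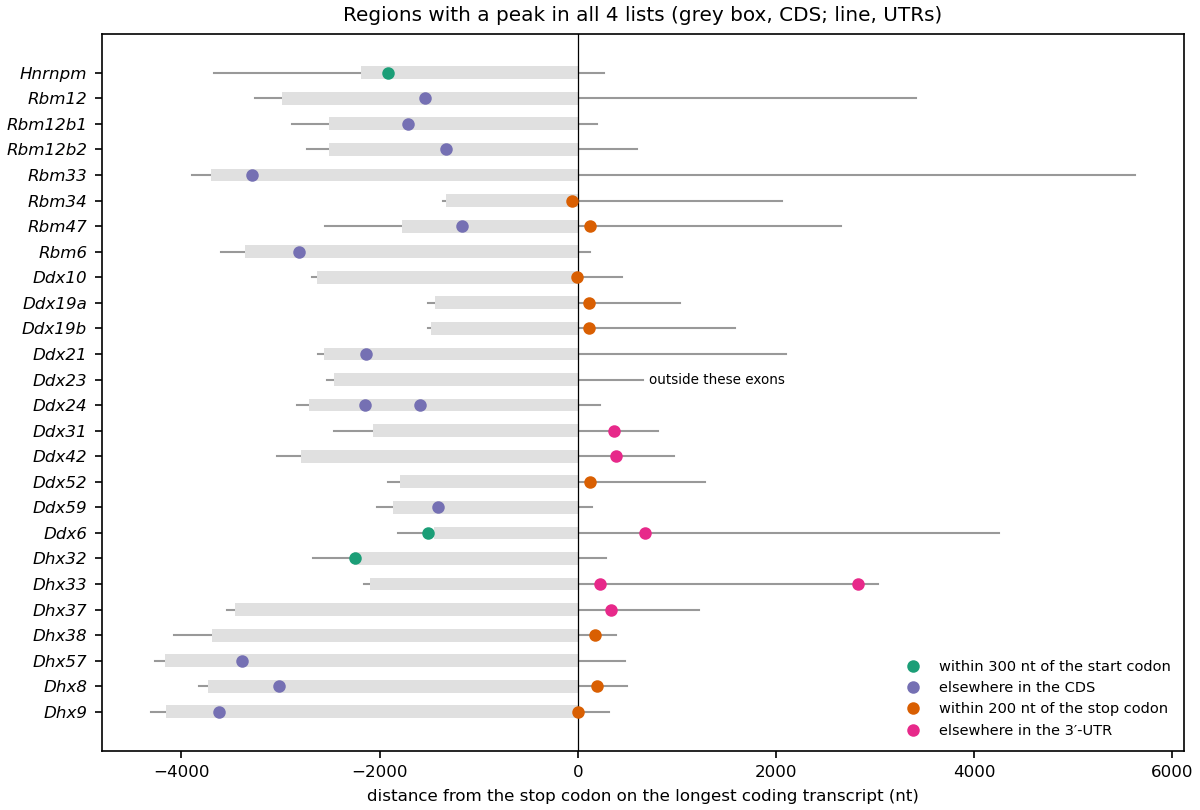
Middle of each region found in all 4 lists (points) on the longest coding transcript of the 26 members (rows), in nt from the stop codon (x axis), with the CDS as a grey box and the UTRs as lines. Of the 32 regions, 9 lie within 200 nt of the stop codon and 13 elsewhere in the CDS, and the region of Ddx23 lies outside these exons.

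Of the peaks placed on a transcript, the CDS held 50.8% and 46.8% in WT and 53.2% and 56.1% in KO BMDMs, with means of 48.8% ± 2.86 and 54.6% ± 2.0 (SD, n = 2; two-sided exact permutation test, p = 0.333). The 3′-UTR held 41.0% and 50% against 37.1% and 36.4%, with means of 45.5% ± 6.38 and 36.7% ± 0.518 (SD, n = 2; exact permutation test, p = 0.333). With peaks placed by their midpoints, the genotypes did not overlap in either measure. The other genes moved in the same directions, from 48.5% to 53.6% in the CDS and from 48.2% to 42.5% in the 3′-UTR. With every base of a member peak counted, the genotypes overlapped in the CDS, with means of 59.3% in WT and 60.6% in KO BMDMs (exact permutation test, p = 0.667). The 3′-UTR means were then 37.5% and 31.6% (exact permutation test, p = 0.333). Within 200 nt of the stop codon lay 27.9% and 27.4% of the member peaks in WT and 27.4% and 24.2% in KO BMDMs (exact permutation test, p = 0.667).

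In every list a larger share of member peaks than of other peaks lay near the start codon, a feature that was looked at after the regions had been seen. Within 300 nt of it lay 14.8% and 9.68% of member peaks in WT (9 of 61 and 6 of 62) and 19.4% and 16.7% in KO BMDMs (12 of 62 and 11 of 66), against 8.27% and 7.83%, and 10.2% and 9.03%, for the other genes. Both KO lists stood above both WT lists for members and for other genes (exact permutation test, p = 0.333 for each). Of the regions found in at least 2 lists, 12 of 75 on members lay near the start codon (16.0%, against 7.57% for other genes). They were on *Hnrnpl*, *Hnrnpm*, *Hnrnpu*, *Hnrnpul1*, *Hnrnpul2*, *Rbm8a2*, *Ddx6*, *Ddx17*, *Ddx39b*, *Dhx32*, *Dhx34* and *Dhx38*. For *Hnrnpl*, whose transcript has no annotated 5′-UTR, the first base of the annotated CDS was used, which may not be a start codon. *Ddx39b*, the product of which works in splicing and mRNA export, scored 297.83 in WT-1 and 742.24 in KO-1, and *Hnrnpul2*, which encodes an hnRNP U-like protein, scored 397.59 in WT-1 and 2464.98 and 1747.62 in the KO lists. *Ddx17* (257.48 and 845.30) and *Hnrnpu* (298.75 and 762.34) had their start regions in the KO lists alone. WT-2, which held the lowest share, lacked 8 of these 12 regions, WT-1 lacked 3, and the KO lists lacked 1 at most. How many start regions of other genes each list lacked was not counted, so these counts do not set the members apart. On other genes too, the KO lists held more peaks near the start codon, 556 and 515 against 439 and 437 in WT BMDMs.

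Part of the member peaks lay over introns that GENCODE annotates as retained. A peak was counted so when at least 100 bp of it fell outside the longest coding transcript and an annotated retained-intron transcript covered it best, a definition made after the peaks had been seen. Members had 11 and 7 such peaks in WT (15.5% and 10.4% of their peaks) and 12 and 12 in KO BMDMs (16.4% and 16.0%), against 4.59% and 2.95%, and 5.22% and 5.37%, for the other genes. WT-2 was lowest for members and for other genes alike, and the KO lists exceeded both WT lists (exact permutation test, p = 0.333). For members this order did not hold among the top 50% of peaks, where the means were 18.1% in WT and 15.6% in KO BMDMs, nor with a minimum of 200 bp, where WT-1 (9.86%) stood above both KO lists (9.59% and 9.33%). Among genes with such a transcript, which were 71.0% of the members and 56.4% of the other genes with a peak, the shares for members were 21.2% and 14.9% in WT and 22.6% and 21.1% in KO BMDMs, and for the others 7.92% and 5.17% against 9.21% and 9.44%. By gene, 14 of the 69 members with a peak had at least 1 (20.3%), against 613 of 6988 other genes (8.77%). Whether unspliced RNA was more abundant for these genes was not tested, since the lists hold no input reads.

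**Figure D4:**
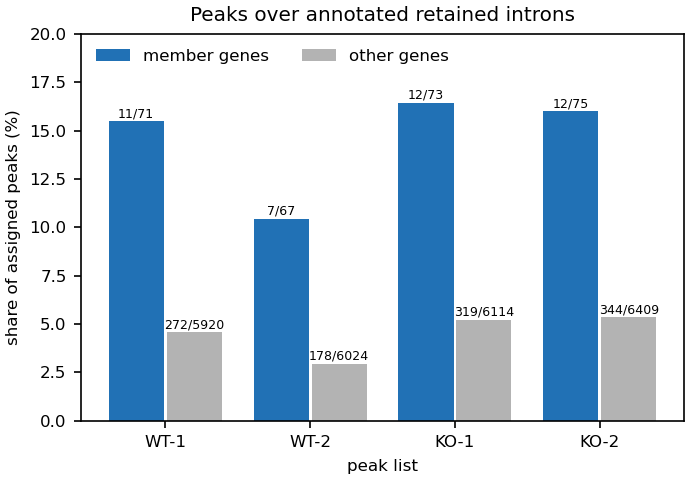
Share of assigned peaks (y axis, %) that lay over annotated retained introns in each list (x axis), for members (blue) and other genes (grey), with the counts above the bars. Members stand at 10.4% to 16.4% and other genes at 2.95% to 5.37%.

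*Ddx23*, *Ddx24*, *Dhx9* and *Hnrnpm* had a retained-intron peak in every list. *Ddx23*, a helicase of the U5 snRNP needed to activate the spliceosome, scored 1386.22 and 1143.70 in WT and 1868.55 and 2118.43 in KO BMDMs, at percentiles of 77.5, 64.6, 75.9 and 73.5. Its peaks ended at the same exon edge in all lists, spanned exons and the introns between them, and shared a stretch of 574 bp. *Hnrnpm*, which encodes a regulator of alternative splicing, had a peak over exon 2 and the intron behind it at scores of 708.94 and 844.47 in WT and 992.45 and 186.27 in KO BMDMs, at percentiles of 60.6, 55.9, 62.7 and 14.9, of which KO-2 was the lowest. A further *Hnrnpm* peak within that intron was listed in KO-1 (381.29) and KO-2 (65.97), while WT-1 held a different peak (589.65) between the 2 places. In *Dhx9* such peaks were centred 537 nt into the CDS, at 718.05 and 1083.11 in WT and 1291.28 and 1018.83 in KO BMDMs, and the genotypes overlapped at percentiles of 61.0 and 63.2 against 68.5 and 56.8. The nucleolar gene *Rbm28* and the genes *Rbm34* and *Rbm4* had retained-intron peaks in 3 lists, *Rbm22*, *Rbm25*, *Rbm5* and *Rbm6* in 2, and *Dhx15*, *Rbm4b* and *Srsf4* in 1. The *Rbm28* peak scored 1267.17 in WT-1 and 3100 and 2464.90 in the KO lists and was missing from WT-2. For *Rbm22*, *Rbm6* and *Hnrnpm*, the KO-only regions lay over such introns.

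**Figure D5:**
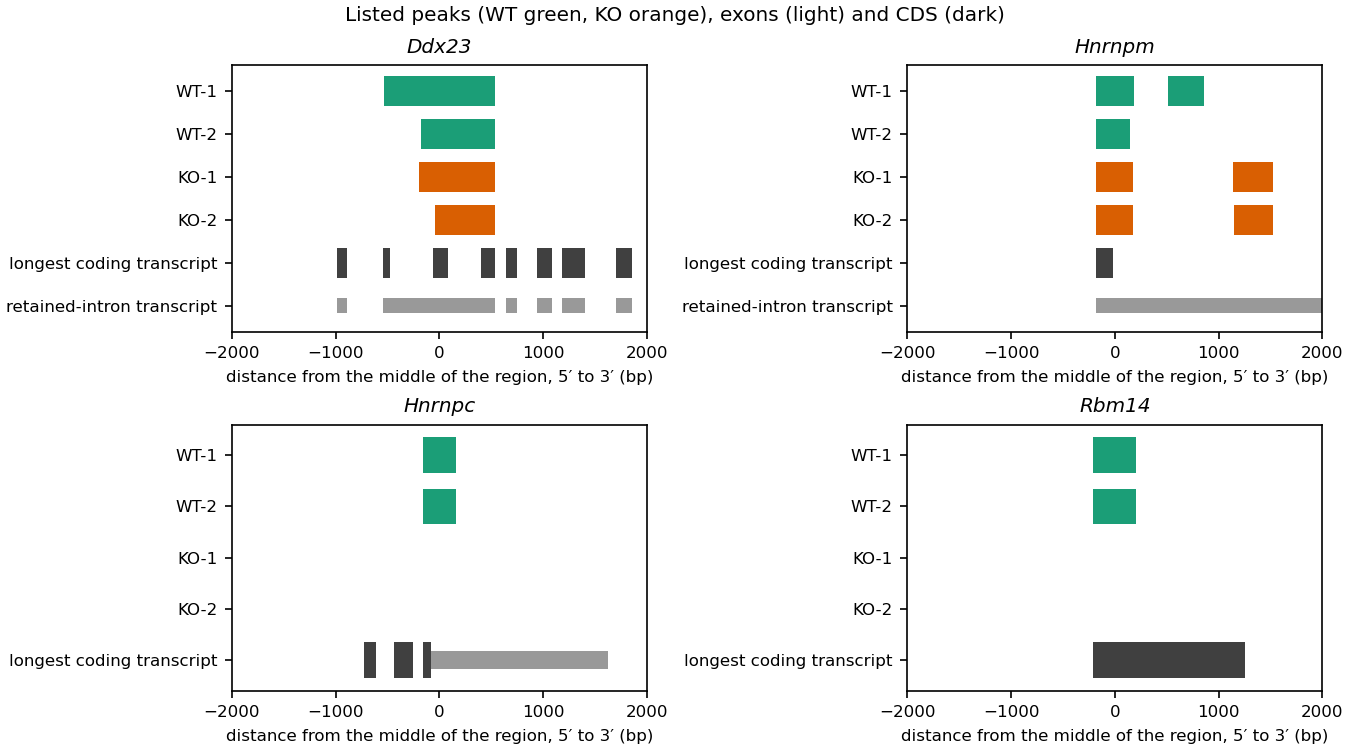
Listed peaks of Ddx23, Hnrnpm, Hnrnpc and Rbm14 in each list (WT green, KO orange) above the longest coding transcript (CDS dark, UTR light) and, where present, a retained-intron transcript, in bp from the middle of the region along the direction of transcription (x axis). The Ddx23 and Hnrnpm peaks of all 4 lists run from exons into introns, and the Hnrnpc and Rbm14 peaks appear in the WT lists alone.

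Member peaks had median widths of 416 and 417 bp in WT and 432 and 491 bp in KO BMDMs, and those of other genes 482 to 547 bp. The score was at or above the median of its list for 57.7% and 53.7% in WT and 56.2% and 49.3% in KO BMDMs (exact permutation test, p = 0.667). Of all 286 member peaks, 176 (61.5%) had at least 1 edge within 1 bp of an annotated exon boundary. How such edges came about was not tested. Another gene was overlapped by 13 member peaks, among them the *Hnrnpm* 5′-UTR peaks of KO-1, which *March2* overlaps equally.

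Splicing factors and helicases outside the member families, 69 genes of a list that included the U2 snRNP and U5 snRNP proteins, SR-related proteins and splicing kinases, gave counts alike to those of the members. Of these, 41 had a peak and 16 had 1 in every list, with 24 and 28 genes in WT and 28 and 28 in KO BMDMs. The SR-related proteins *Son*, *Srrm1*, *Srrm2*, *Pnn* and *Acin1* and the SR protein kinase *Srpk2* had a peak in all 4 lists. The SR-like gene *Tra2a* had peaks in 2 lists and *Tra2b* in none, and of the other splicing kinases *Clk1* had peaks in 2 lists, *Srpk1* and *Clk4* in 1 and *Clk2* in none. *Son*, a large nuclear speckle protein, scored 3100, 3100, 3100 and 2584.59. None of these genes was WT only, where the share of all genes was 3.84%, and *Sf3b3*, *Celf2* and *Taf15* were KO only, 7.32% of those with a peak against 4.87% of all genes. *Sf3b3*, a subunit of the U2 snRNP, scored 1069.14 and 164.96 in the KO lists.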

How the data were processed

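MeRIP-Seq of BMDMs from 2 WT and 2 KO mice gave 8 libraries and 4 deposited peak lists, 1 per mouse. Per the labels, the submitters' processing notes name cutadapt 1.9.3, HISAT2 2.0.4 and the build mm10. The score of each peak was deposited as the peak caller gave it. The peak names have the form that MACS writes, but the caller's version and settings are not given in the sources used here. Lists were not pooled. Scores are given as deposited, and lists were compared by a peak's percentile within its list. No read counts were used, so depth is unknown and no interval for counting error can be given.

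The members and gene lists were chosen with earlier results of these data known. Positions were read as GRCm38 and assigned to genes of GENCODE M21 (comprehensive set) by the largest same-strand exon overlap of at least 1 bp. At equal overlap, named genes took precedence over predicted loci. Positions along a transcript refer to the longest coding transcript. Named genes were the members called by genotype, any with 6 or more peaks in a list (none), any whose best peak had the highest score in all 4 lists, any with peaks outside the longest transcript in all lists, and, per family, the 3 members with a peak in all lists whose lowest percentile was highest. Other genes were named after their values were seen. Groups were compared by the two-sided exact permutation test over lists (6 labellings). Lists of genes are described by counts with no test. Alternatives were the top 50% of peaks, an equal number of peaks per list, each list left out, a replicate block, other overlaps, windows and motifs and, chosen after seeing the data, other tie rules, the basic annotation, and other limits for start codon and retained-intron peaks. Same-numbered lists are not said to share a litter or day. The functions were tested on simulated data. Software comprised samtools 1.23.1 and Python 3.11.15 with matplotlib 3.10.9, Biopython 1.88, numpy 2.4.6 and pysam 0.24.0.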

Additional observations from a re-analysis of the deposited data

How the results depend on the processing

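The pattern counts depended on score and on single lists. Shares over all genes and regions were taken with the main settings alone, so the WT-only and KO-only counts below do not compare members with other genes. Among the top 50% of peaks, 1 member was WT only (in place of 4), member regions were WT only or KO only 3 times each, and 10 other splicing genes were in all lists. Some differences (KO minus WT) changed sign. Member genes went from 1 to -0.5 with the top 50% and with equal numbers of peaks, and to 0 with ties by alphabet. With the top 50%, the stop codon share went from -1.81 to 1.29 percentage points and the retained-intron share from 3.25 to -2.53. The GGAC share went from -0.920 to 2.96 with the top 50%, 3.61 in whole peaks and 0.160 for DRACH. With a list left out, the member gene difference ran from 0 (without KO replicate 1) to 2, the GGAC share from -2.02 to 0.183 (without WT replicate 2), the upper-half share from -6.41 to 0.425 (without KO replicate 2) and the off-transcript share from -0.550 (without WT replicate 2) to 6.07 percentage points. Leaving a list out asks for fewer agreeing lists by construction: WT-only members then ran from 6 to 8 (without WT replicate 1) and KO-only members from 2 (without KO replicate 2) to 9 (without WT replicate 2), WT-only regions from 7 to 20 (without WT replicate 1), KO-only regions from 13 to 19 (without KO replicate 1), other splicing genes from 0 to 4 (WT only) and 3 to 7 (KO only, both without WT replicate 2), and the excess of the within-genotype Jaccard index from -0.0338 (without KO replicate 2) to 0.155 (without WT replicate 1). *Hnrnpc*, *Hnrnpa3*, *Rbm14*, *Dhx30* and *Rbm22* were called with each list left out. The rule fixes this in advance, since a gene called with 4 lists stays called with fewer, so it does not show that the calls are robust. The mean retained-intron share of members over the lists was 14.6%, 19.9% on genes with such a transcript and 8.69% with a minimum of 200 bp. Other causes were not tested.

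With a replicate block, where a gene had to differ in the same direction in at least 1 same-numbered pair and in no pair in the other, 15 members were WT only and 20 KO only, as were 36 and 44 regions and 9 and 10 other splicing genes. The share of all genes or regions under this looser rule was not computed, so these counts do not set the members apart. The deviations of same-numbered lists correlated at 0.135 over 124 member regions, and no label says that the numbers pair the mice.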
